A study of Capra hircus with 21 samples.

Results

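CDX2, GATA3, TFAP2C, TEAD4 and ELF5 encode transcription factors that, in mice, act in the first lineage decision of the embryo, the separation of the trophectoderm from the inner cell mass. They were chosen by their gene symbols, and each symbol stood once in a deposited table of 19040 goat genes, so the account below covers 5 of 19040 genes in all 21 libraries. RNA was sequenced from oocytes of the goat (Capra hircus) that had matured in the animal, and from in vivo embryos at the 2-cell, 4-cell, 8-cell and 16-cell stages, as morulae and as blastocysts. Each of the 7 stages had 3 libraries, lettered A to C. The labels give total RNA as the source, name no treatment, breed or age, and do not say how many oocytes or embryos a library held. They also leave unsaid whether the 3 libraries of a stage trace to different females, so p-values reflect only the spread between libraries, which may be technical.

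The trophectoderm is the outer epithelium of the blastocyst, which pumps fluid into the cavity and later forms the fetal part of the placenta. In the mouse, outer cells of the morula keep the Hippo pathway off, YAP1 and WWTR1 enter the nucleus and bind the DNA-binding factor TEAD4, and TEAD4 turns on CDX2 and GATA3. TFAP2C, also called AP-2 gamma, acts beside them in polarising outer cells, and ELF5 maintains trophoblast stem cells in the mouse. In cattle, ELF5 RNA has been placed in the epiblast rather than in the trophectoderm, so the mouse roles need not hold in a ruminant.

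A blastocyst library holds trophectoderm and inner cell mass together, and in whole embryos fewer cells of a type and less RNA per cell cannot be told apart. The levels below are in RPM, the reads of a gene divided by the implied total reads of its library in M, recovered from the deposited RPKM values as described under processing, and a library had an implied total of 24.0 to 66.6 M reads, of which 8.47 to 26.7 M lay in listed genes. With those totals, 3 reads correspond to 0.045 to 0.125 RPM, and a level under that floor is not distinguished from no reads, as far as counting error goes. Listed genes held 24.4 and 24.9% of the total reads in blastocysts A and B, and 40.5% in blastocyst C. In the other libraries they held 32.1 to 42.0%. For the same share of gene reads, RPM is thus lower in blastocysts A and B, and an alternative scaled to reads in listed genes was also run. Stage markers followed the labels in most libraries. The oocyte growth factor GDF9 had 0.0877 to 0.142 RPM in blastocysts and 136 to 180 RPM in oocytes, and the epithelial keratin KRT8 had 766 to 1337 RPM in blastocysts and 0.0208 to 0.393 RPM at the 8-cell stage. Libraries 16-cell C and morula C stood apart from their stage mates. GDF9 had 143 RPM in 16-cell C beside 17.5 and 24.1 RPM in 16-cell A and B, and 27.5 RPM in morula C beside 1.32 and 1.58 RPM in morula A and B. Per its label, the reverse reads of morula A were in a corrupt file and were left out of the submission.

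TEAD4 rose in the morula and TFAP2C at the 16-cell stage, each after libraries with few or no reads. GATA3 was present from the oocyte on, was low in 4 of the 6 16-cell and morula libraries and rose in the blastocyst. CDX2 and ELF5 were scarce throughout, with at most 77 and 35 reads in a library, CDX2 highest in blastocysts and ELF5 at the 8-cell stage. Of the 5 genes, GATA3, TFAP2C and TEAD4 reached the filter of at least 1 RPM in at least 3 libraries, which 10384 of 19040 genes passed. CDX2 and ELF5 did not, and their tests come from the same model fitted to every gene with a read. The tests were limma's, on log2(RPM + 1), with Benjamini-Hochberg adjusted p-values, and a gene was called when its adjusted p was below 0.05 and its log2 fold change was at least 1 in size. Fold changes on that scale understate the change of low genes.

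**Figure D1:**
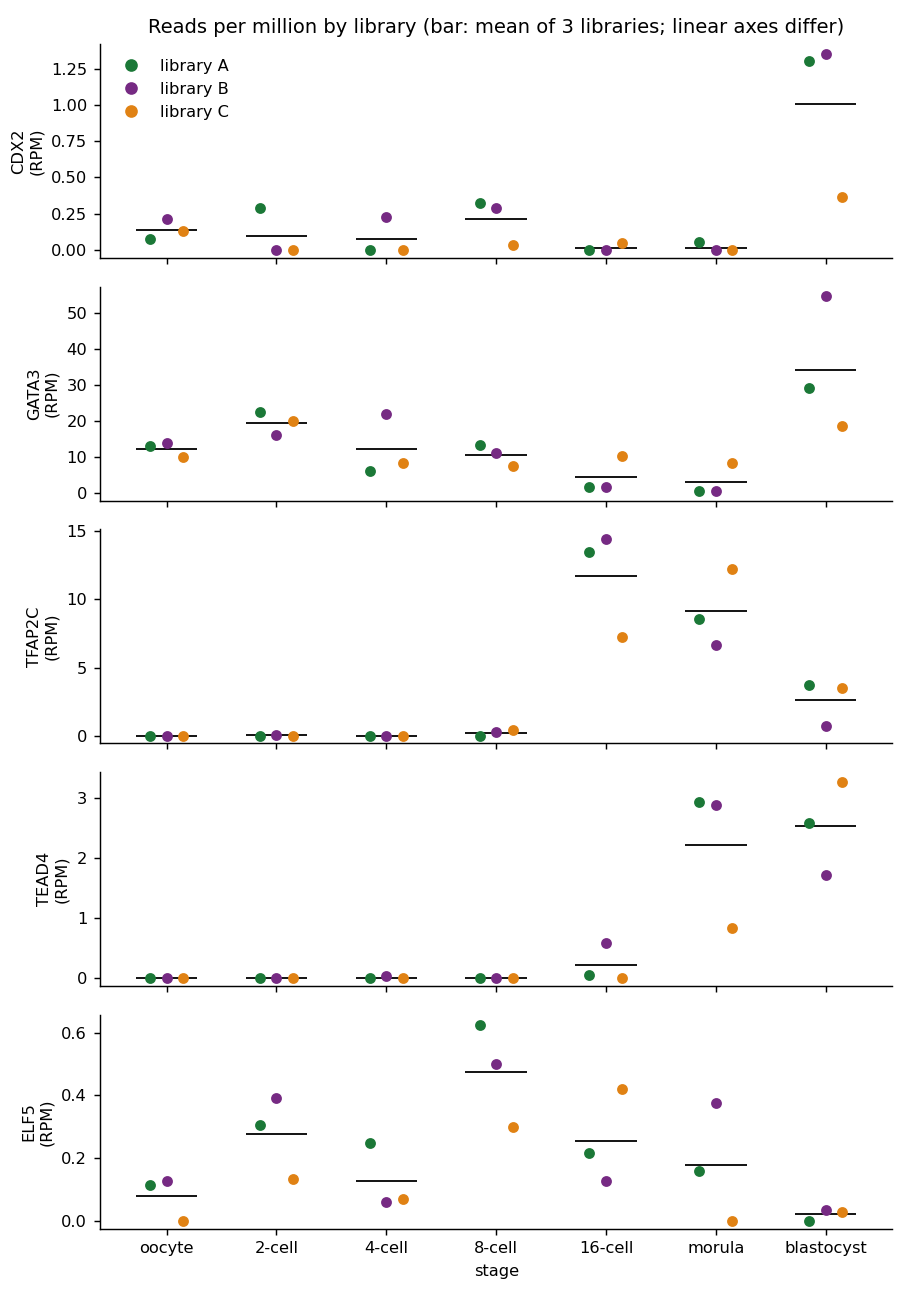
RPM (vertical axes, linear, with a scale of their own per gene) of the 5 factors in 21 libraries, by stage from oocyte to blastocyst; each point is 1 library, coloured by its letter, and the bar is the mean of 3 libraries. TFAP2C is highest at the 16-cell stage (7.21 to 14.4 RPM), TEAD4 in morulae and blastocysts, GATA3 and CDX2 in blastocysts, and ELF5 at the 8-cell stage (0.299 to 0.625 RPM).

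TEAD4 is the DNA-binding partner of YAP1 and WWTR1 and, in the mouse, stands upstream of CDX2 and GATA3. The table places it on chromosome 5 (105696120 to 105729916, minus strand), with a span of 33.8 kb. It had no read in any of the 3 oocyte, 3 2-cell and 3 8-cell libraries, and 2 reads in 1 of the 4-cell libraries. At the 16-cell stage its 3 libraries had 0.0586, 0.578 and 0 RPM, which are 3, 23 and 0 reads. In morulae A, B and C it had 2.93, 2.87 and 0.835 RPM, and in blastocysts 2.58, 1.72 and 3.26 RPM. Every morula library thus lay above every 16-cell library, and morulae and blastocysts overlapped. Over their 3 libraries each, the 16-cell and 8-cell stages had 26 and 0 TEAD4 reads, at least 7.71-fold in RPM by an exact 95% interval for counting error. The log2 change of 0.25 in that step was not called (limma, adjusted p 0.397).

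TEAD4 rose in morulae against 16-cell embryos, with means of 2.21 ± 1.19 and 0.212 ± 0.318 RPM (SD, n = 3 each), a ratio of 10.4. On the log2(RPM + 1) scale the change was 1.35 with a standard error of 0.24, and limma's adjusted p was 0.00063. Of the 3 factors that passed the filter, TEAD4 alone was called in that comparison, in which 17% of all genes tested were called. Between blastocysts and morulae the difference was 0.19 with a standard error of 0.24 (limma, adjusted p 0.559), so RPM did not distinguish the 2 stages. It was 0.87 under median-ratio scaling (limma, adjusted p 0.0109) and 0.78 under quantile normalization (adjusted p 0.0387). Both were short of the fold required for a call. Without morula C the difference was −0.17 (limma, adjusted p 0.614). Against the 8-cell stage, where its 3 libraries had no read, blastocysts had 2.52 ± 0.774 RPM (SD, n = 3), at least 43.9-fold higher when 8-cell libraries are set to their mean floor of 3 reads each. That rise was called, at 1.79 with a standard error of 0.24 on the log2 scale (limma, adjusted p 1.02e-06). With a pseudocount of 5 RPM in place of 1, both changes of TEAD4 fell below a log2 fold change of 1, at 0.46 for morula against 16-cell and 0.58 for blastocyst against 8-cell.

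By coordinates, the end of TEAD4 lies 2 bases past the start of an unnamed protein-coding gene on the opposite strand, ENSCHIG00000004264. That neighbour had 41.3 to 145 RPM from the oocyte to the 8-cell stage, where TEAD4 had 2 reads in all, and 3.69 to 17.6 RPM in blastocysts. Whether reads were shared between the genes was not tested.

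TFAP2C is an AP-2 factor that in the mouse binds at genes of polarity and of the trophectoderm. It lies on chromosome 13 (58658761 to 58666863, minus strand), with a span of 8.10 kb. No library of the oocyte or the 4-cell stage had a TFAP2C read, and 1 library of the 2-cell stage had 2. At the 8-cell stage libraries A, B and C had 0, 12 and 20 reads, which are 0, 0.25 and 0.374 RPM. At the 16-cell stage they had 13.5, 14.4 and 7.21 RPM, in morulae 8.56, 6.66 and 12.2 RPM, and in blastocysts 3.71, 0.684 and 3.46 RPM. The 16-cell libraries and morulae overlapped with each other, and each blastocyst library lay below each morula and above each 8-cell library. Over their 3 libraries each, the 8-cell and 4-cell stages had 32 and 0 TFAP2C reads, at least 8.18-fold in RPM by an exact 95% interval for counting error. The log2 change of 0.26 in that step was not called (limma, adjusted p 0.881).

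TFAP2C had a mean of 11.7 ± 3.92 RPM at the 16-cell stage and 0.208 ± 0.191 RPM at the 8-cell stage (SD, n = 3 each), a ratio of 56.3. The rise was called, at 3.35 with a standard error of 0.33 on the log2 scale (limma, adjusted p 7.81e-08). It was the single call among the 3 factors in that comparison, in which 46.1% of all genes tested were called. It was called under each of the alternatives tried, with log2 changes of 1.22 on the deposited RPKM to 5.47 with a pseudocount of 0.1. Morulae did not differ from 16-cell embryos by the test, at −0.31 with a standard error of 0.33 (limma, adjusted p 0.539).

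TFAP2C then fell to 2.62 ± 1.68 RPM in blastocysts, against 9.15 ± 2.83 RPM in morulae (SD, n = 3 each), a ratio of 0.286. The log2 change was −1.59 with a standard error of 0.33 (limma, adjusted p 0.000542). The median gene tested also lay lower in blastocysts than in morulae, by −0.50 on the log2 scale. Under median-ratio scaling, where that median was −0.05, the change of TFAP2C was −0.94 (adjusted p 0.0326), and under quantile normalization it was −0.99 (adjusted p 0.0228), both short of the fold required. Without blastocyst B, the library with the lowest TFAP2C level of that stage, the change was −1.11 and was still called (adjusted p 0.00646). Blastocysts were still above the 8-cell stage, by 1.46 with a standard error of 0.33 (limma, adjusted p 0.000408) and with means in a ratio of 12.6.

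GATA3 is a zinc-finger factor that in the mouse acts in parallel with CDX2 downstream of TEAD4. It lies on chromosome 13 (12369935 to 12400146, plus strand, a span of 30.2 kb), 46.26 Mb from TFAP2C. Unlike TEAD4 and TFAP2C it had 295 to 1438 reads per library from the oocyte to the 8-cell stage. Libraries A, B and C had 12.9, 14.0 and 9.97 RPM in oocytes, 22.6, 16.1 and 19.9 RPM at the 2-cell stage, 6.10, 22.0 and 8.39 RPM at the 4-cell stage and 13.3, 11.2 and 7.43 RPM at the 8-cell stage. Library 4-cell B stood above its stage mates and within the range of the 2-cell stage. At the 16-cell stage GATA3 had 1.54, 1.73 and 10.1 RPM, in morulae 0.464, 0.375 and 8.24 RPM, and in blastocysts 29.4, 54.8 and 18.6 RPM. Blastocyst C lay within the range of the 2-cell stage and below 4-cell B.

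The level of GATA3 was thus low in 16-cell A and B and in morulae A and B, while 16-cell C and morula C overlapped the range of the 8-cell stage. With all libraries, GATA3 had 4.47 ± 4.91 RPM at the 16-cell stage and 10.7 ± 2.99 RPM at the 8-cell stage (SD, n = 3 each), and the log2 change of −1.42 was not called (limma, adjusted p 0.0612). Without 16-cell C it was −2.11 and was called (adjusted p 0.00828). It was also called without morula C, at −1.42 (adjusted p 0.0181), and without both libraries, at −2.11 (adjusted p 0.000499). Morulae against 16-cell embryos gave −0.69 with all libraries (limma, adjusted p 0.468), and −1.59 without morula C (adjusted p 0.0286). 16-cell C and morula C also carried more GDF9 than their stage mates, as given above, and the part of these libraries' RNA in the level of GATA3 was not tested.

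GATA3 rose in blastocysts against morulae, with means of 34.2 ± 18.6 and 3.03 ± 4.51 RPM (SD, n = 3 each), a ratio of 11.3. The log2 change was 3.60 with a standard error of 0.63 (limma, adjusted p 0.000113), and it was called under every alternative that could be run for it, without any single library too. In this comparison 2 of the 3 factors were called, GATA3 upward and TFAP2C downward, where 35.9% of all genes tested were called. Against the 8-cell stage the rise was smaller. GATA3 averaged 34.2 RPM in blastocysts and 10.7 RPM at the 8-cell stage, a ratio of 3.21, and the log2 change was 1.50 with a standard error of 0.63 (limma, adjusted p 0.0376). The libraries of these stages did not overlap, but the call was lost without 8-cell B or C or blastocyst A or B. The limma adjusted p-values were then 0.0629, 0.117, 0.0645 and 0.163, in that order. The call was also lost with a pseudocount of 0.1 (adjusted p 0.0879) and with no filter (adjusted p 0.0643). Under the 3 other scalings it was kept. The rise was 1.93 when scaled to reads in listed genes, 2.75 under median-ratio scaling and 2.79 under quantile normalization. Their limma adjusted p-values were 0.0127, 0.000537 and 0.000348.

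All 3 factors above the filter were called upward in blastocysts against the 8-cell stage, where 65.9% of all genes tested were called, 18.0% upward and 47.9% downward. That count depends in part on the filter, which TEAD4 and TFAP2C reached only through libraries later than the 8-cell stage. Below the filter stayed CDX2, with a higher mean in blastocysts than at the 8-cell stage, and ELF5, with a lower one. Earlier in development none of the 3 was called. From the oocyte to the 8-cell stage TFAP2C had at most 0.374 RPM in a library and TEAD4 at most 0.0306 RPM. At such levels no change could reach the fold required for a call, so only GATA3 could have been called there. In 2-cell embryos against oocytes 14.5% of all genes tested were called, in 4-cell against 2-cell embryos 0%, with 326 genes at an unadjusted p below 0.05, and in 8-cell against 4-cell embryos 0.385%. The lowest unadjusted p among the 3 factors in limma was 0.332, 0.208 and 0.436 in these comparisons, taken in the order of development. The last of these was that of TFAP2C, where GATA3 had 0.979. The blastocyst comparisons share their blastocyst libraries, so they are not independent of each other.

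**Figure D2:**
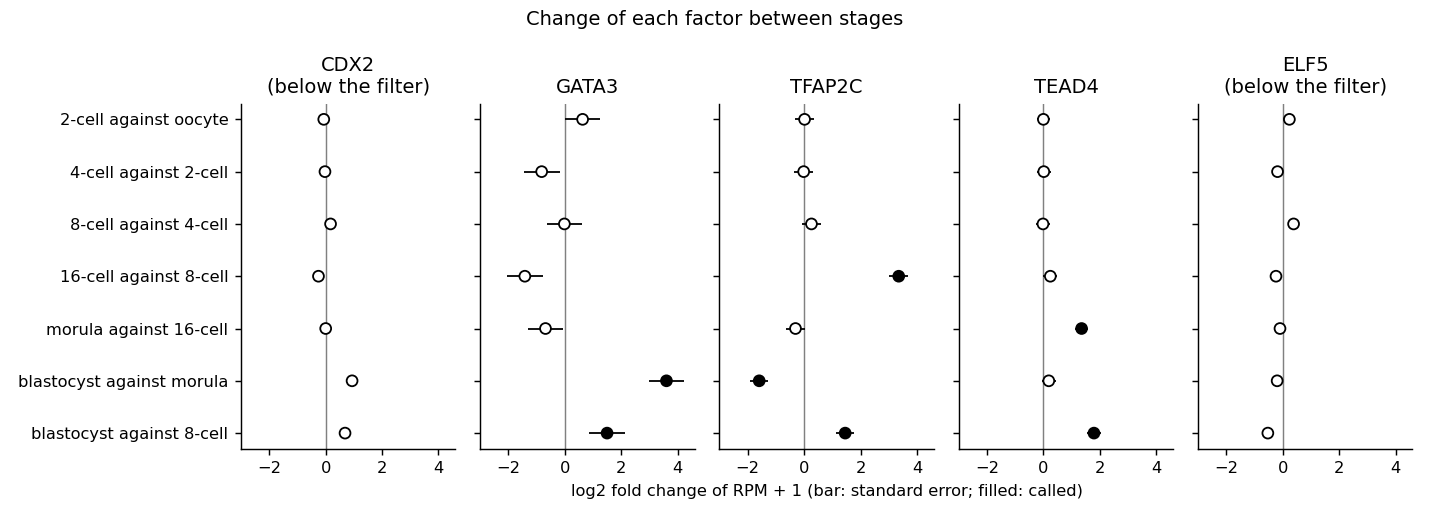
Log2 fold changes of RPM + 1 (horizontal axis) of each factor in 7 comparisons between stages (vertical axis), with bars of 1 standard error; filled points are called at an adjusted p below 0.05 and a log2 fold change of at least 1 in size. TFAP2C has its largest change in 16-cell against 8-cell embryos (3.35) and GATA3 in blastocysts against morulae (3.60), while CDX2 and ELF5, below the filter, have no filled point.

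CDX2 is the homeobox factor that in the mouse specifies and maintains the trophectoderm. It lies on chromosome 12 (54632442 to 54637834, minus strand), with a span of 5.39 kb. In blastocysts A, B and C it had 1.30, 1.35 and 0.369 RPM, which are 59, 77 and 13 reads. In the other 18 libraries it had 0 to 18 reads, or at most 0.322 RPM. Its 3 morulae had 3, 0 and 0 reads and its 16-cell libraries 0, 0 and 2, at or below the floor of 3 reads. Some reads stood at earlier stages, with 4, 10 and 7 in oocytes and 18, 14 and 2 at the 8-cell stage.

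The lowest blastocyst, library C, lay just above the highest earlier library, 8-cell A, with 0.369 and 0.322 RPM. Over their 3 libraries each, blastocysts had 149 CDX2 reads and morulae 3, a ratio of 51.4 in RPM with an exact 95% interval of 17.3 to 252 that covers counting error only. The log2 change was 0.94 with a standard error of 0.16 (limma on all genes with a read, adjusted p 0.00027), short of the fold required for a call. It passed that fold with a pseudocount of 0.1 (3.09), when scaled to reads in listed genes (1.15), under median-ratio scaling (1.44), under quantile normalization (1.50) and without blastocyst C (1.19). Blastocysts averaged 1.01 ± 0.554 RPM and 8-cell embryos 0.217 ± 0.156 RPM (SD, n = 3 each), a ratio of 4.65, and the log2 change of 0.69 had an adjusted p of 0.00147 in limma's test and was not called. The order of the other 6 stages, with the 8-cell stage next and the morula and 16-cell stages lowest, rests on neighbours whose libraries overlap.

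ELF5 is an ETS factor that maintains the trophoblast in the mouse. It lies on chromosome 15 (17886188 to 17910688, plus strand), with a span of 24.5 kb, and its end is 392 bases from the catalase gene CAT on the opposite strand. It had 35, 24 and 16 reads in 8-cell A, B and C, or 0.625, 0.499 and 0.299 RPM. In blastocysts it had 0, 2 and 1 reads, all below the floor of 3 reads. In the remaining stages its libraries had 0 to 24 reads. CAT had 8.72, 28.6 and 10.8 RPM in the blastocysts. Whether reads were shared between the genes was not tested.

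The mean of ELF5 was 0.0212 ± 0.0186 RPM in blastocysts and 0.475 ± 0.164 RPM at the 8-cell stage (SD, n = 3 each), and the libraries did not overlap. Summed over libraries these are 3 and 75 reads, a ratio of 0.0458 in RPM with an exact 95% interval of 0.00924 to 0.139 for counting error. The log2 change of −0.52 had a standard error of 0.13 and an adjusted p of 0.00194 in limma's test, and was short of the fold required for a call. With a pseudocount of 0.1 the change was −2.22 and was called (adjusted p 0.00145). Between blastocysts and morulae, with 3 and 18 reads, the change was −0.19 (limma, adjusted p 0.299). ELF5 was thus the only factor of the 5 whose blastocyst mean was the lowest of the 7 stages, and no pair of neighbours in the order of its stage means had libraries apart.

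Per unit of gene span, GATA3 was the most abundant of the factors in blastocysts. Ranked by deposited RPKM among 17446 protein-coding genes, GATA3 stood at the 83.3rd to 94.0th percentile in the 3 blastocysts, TFAP2C at the 67.3rd to 83.1st, CDX2 at the 64.7th to 80.7th, TEAD4 at the 60.3rd to 67.9th and ELF5 at the 0th to 34.7th. At the 16-cell stage TFAP2C was the highest, at the 83.3rd to 89.2nd percentile. These values are divided by the whole span of a gene, introns included, so a long gene such as TEAD4 has a low RPKM for its number of reads.

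The moderated F test over all stages gave adjusted p-values of 3.18e-10 for TFAP2C, 1.24e-07 for TEAD4 and 0.000217 for GATA3 in limma, in a fit where 92.5% of the 10384 genes fell below 0.05. In the fit over 19040 genes, where 64.3% fell below 0.05, CDX2 had 0.000444 and ELF5 0.0223. Across the 21 libraries, the log2(RPM + 1) values of CDX2 and GATA3 had a Pearson correlation of 0.63, those of TFAP2C and TEAD4 of 0.56, and those of GATA3 and TFAP2C of −0.60. The libraries of a stage share that stage, and these values are descriptions.

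Each factor was set beside 7928 other genes with a symbol that passed the filter, and the 5 with the most similar profile are named here. TFAP2C had its closest profiles in the nuclear import receptor KPNA4 and the snRNA gene transcription subunit SNAPC5 (r = 0.99 each over 21 libraries), followed by SDF2, the Mediator subunit MED31 and WDR55 (0.98 each). KPNA4 had 33.9, 30.3 and 13.0 RPM at the 16-cell stage and at most 0.599 RPM in any earlier library. For TEAD4 they were PSTPIP2 (0.99), RHNO1 (0.98), the proteoglycan SDC4, DHRS7 and APOOL (0.97 each). PSTPIP2 had at most 2.21 RPM in any library before the morula stage, 45.2, 50.2 and 6.79 RPM in morulae and 53.1, 51.3 and 78.3 RPM in blastocysts, so morula C was lowest of its stage for it as it was for TEAD4. RHNO1, a DNA damage checkpoint gene, lies 68.3 kb from TEAD4 on the same strand.

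For GATA3 the closest profiles were PPIF, the cyclophilin of mitochondria (0.90), its relative GATA2 (0.89), VPS36 (0.89), GPT2 and RAB15 (0.88 each). For CDX2 they were the de novo DNA methyltransferase DNMT3B (0.91), TPPP, SLC12A7, the fatty acid synthase FASN and the aminopeptidase ENPEP (0.90 each). TPPP had 3.65, 4.56 and 1.53 RPM in blastocysts and a read in 1 other library only. The closest to ELF5 was STARD3NL at 0.79, followed by RNF126, TIPARP, FAM214A and BIRC2 (0.72 to 0.73).

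The factors belong to families whose other members were measured in the same libraries. Of 19 relatives listed, 17 were in the table and 11 passed the filter. In blastocysts against the 8-cell stage 4 of them rose, 4 fell and 3 were not called, and with each of the 3 other scalings 6 rose and 3 fell. Of all genes tested, 18.0% were called upward and 47.9% downward there. In blastocysts against morulae 3 rose and 2 fell, or 4 and 2 with each of these scalings, where 7.74% of all genes tested were called upward and 28.1% downward. In 16-cell against 8-cell embryos 1 rose and 4 fell, where 15.4% of all genes tested were called upward and 30.7% downward. The rises and falls of the relatives there were 2 and 2 under median-ratio scaling, 2 and 3 under quantile normalization and when scaled to reads in listed genes, and 1 and 2 when 16-cell A, 16-cell B, 8-cell A or 8-cell B was left out. Without 16-cell C 2 rose and 6 fell. The median log2 change of these relatives was 0.72 in blastocysts against the 8-cell stage, beside −0.93 over all genes tested.

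The AP-2 genes were highest at different stages. TFAP2B had 0.486, 1.37 and 0.965 RPM in blastocysts and 149, 118 and 36.2 RPM at the 8-cell stage, and TFAP2D had 0.263 to 0.508 RPM in blastocysts and 26.1 to 42.1 RPM at the 8-cell stage. Both fell, by −5.51 and −4.56 on the log2 scale (limma, adjusted p 8.79e-06 and 2.23e-09). TFAP2A had 18.6, 27.0 and 11.2 RPM in blastocysts and 1.20, 0.916 and 2.39 RPM in morulae, and rose by 2.96 with a standard error of 0.42 (limma, adjusted p 9.34e-06). By stage means TFAP2C was highest at the 16-cell stage and TFAP2A in blastocysts. TFAP2B and TFAP2D had their highest means at the 8-cell stage, but their libraries there overlapped those of the 2-cell stage. The 2-cell libraries had 82.5 to 102.5 RPM of TFAP2B and 28.15 to 32.98 RPM of TFAP2D. No relative was called in the comparisons of consecutive stages up to the 8-cell stage.

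GATA2, which in the mouse works with GATA3 in trophoblast, had a similar course. It had 20.6, 21.8 and 7.86 RPM in blastocysts and 0.517, 0.291 and 2.41 RPM in morulae, and rose by 3.12 with a standard error of 0.41 (limma, adjusted p 4.21e-06). Against the 8-cell stage, at 4.59, 3.66 and 3.42 RPM, it rose by 1.75 (adjusted p 0.000664). As for GATA3, 16-cell C and morula C were the highest of their stages. GATA4 and GATA5 were below the filter, and GATA6, a factor of the primitive endoderm, was not called in blastocysts against the 8-cell stage.

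Among the TEAD genes, TEAD1 preceded TEAD4. TEAD1 had 4.33, 1.19 and 1.53 RPM in blastocysts and 8.29, 8.38 and 2.69 RPM at the 8-cell stage, where TEAD4 had no read. Its fall of −1.15 (limma, adjusted p 0.0224) was lost under each of the 3 other scalings, with a pseudocount of 5, and without 8-cell A or B or blastocyst B or C, with adjusted p-values of up to 0.834. TEAD2 and TEAD3 stayed at 0.143 RPM or less in every library. CDX1 and CDX4, the relatives of CDX2, stayed at 0.233 RPM or less.

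Of the ETS factors related to ELF5, ELF3 and ELF2 rose in blastocysts against the 8-cell stage, and ELF1 fell. ELF1 had 1.19, 1.44 and 2.16 RPM in blastocysts and 113, 103 and 52.2 RPM at the 8-cell stage, a change of −5.06 (limma, adjusted p 1.47e-07). ELF3, an epithelial factor, had 2.52, 10.5 and 3.29 RPM in blastocysts and 0, 0.125 and 0.482 RPM in morulae, and rose by 2.24 with a standard error of 0.39 (limma, adjusted p 9.21e-05). Its rise against the 8-cell stage, of 1.35 (adjusted p 0.00337), was lost with a pseudocount of 5 and without blastocyst B (adjusted p 0.0425 there). ELF2 rose by 1.44 (limma, adjusted p 0.00633), a call lost with a pseudocount of 5. ELF4 had 3.69, 4.98 and 5.02 RPM in blastocysts and 2.13, 1.94 and 3.13 RPM at the 8-cell stage, and its change of 0.72 was not called (limma, adjusted p 0.0697). EHF rose at the 16-cell stage, by 2.20 against the 8-cell stage (limma, adjusted p 0.000461), and fell in blastocysts against morulae by −3.10 (adjusted p 1.19e-05), with 0.110 to 0.474 RPM in blastocysts and 4.73 to 17.1 RPM in morulae.

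**Figure D3:**
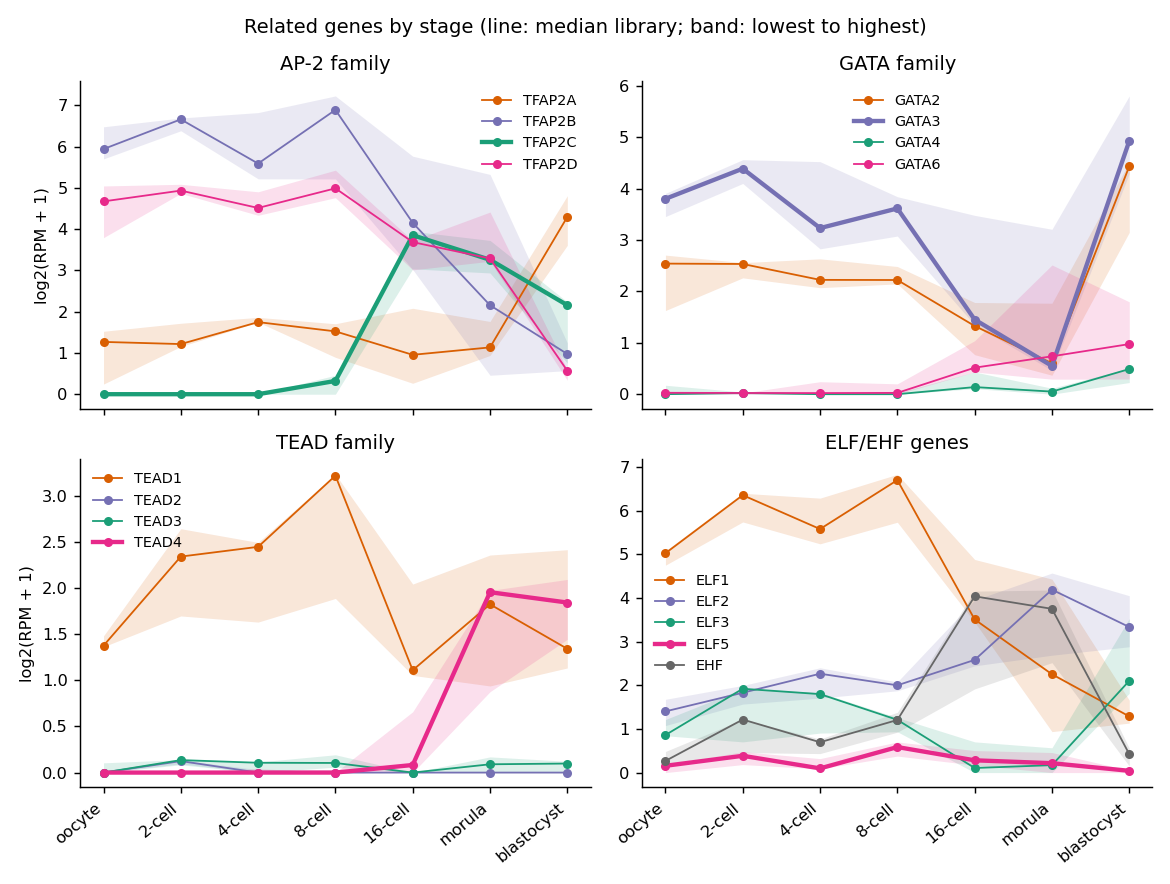
Levels of related genes as log2(RPM + 1) (vertical axes) by stage from oocyte to blastocyst; lines join the median of 3 libraries, bands run from the lowest to the highest library, and the factor of each family described here has the thick line. TFAP2C lies at or below 0.374 RPM up to the 8-cell stage and above it from the 16-cell stage on, where the medians of TFAP2B and TFAP2D are lower than before. TFAP2A, GATA2 and GATA3 have their highest medians in blastocysts.

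The Hippo pathway, which controls the partners of TEAD4, changed in both directions. Of 25 symbols listed, 21 were in the table and 18 passed the filter, and CYR61 and CTGF were found under these older names. In blastocysts against the 8-cell stage 5 rose and 11 fell, or 5 and 8 under median-ratio scaling and under quantile normalization. Of all genes tested, 18.0% were called upward and 47.9% downward in that comparison. The genes that rose were AMOTL2, a scaffold that binds YAP1 (5.65), WWTR1, the relative of YAP1 also called TAZ (5.34), CYR61 (2.42), the scaffold WWC1 (2.35) and CTGF (1.66). The largest falls were in kinases and their cofactors, STK3 (−4.75), STK4 (−4.60), TAOK3 (−4.58) and MOB1B (−3.28). Their limma adjusted p-values were at most 0.00334.

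The partners of TEAD4 moved apart from each other. WWTR1 had 16.3, 95.7 and 15.7 RPM at the 16-cell stage and 1.04, 0.687 and 0.842 RPM at the 8-cell stage, and rose by 4.04 (limma, adjusted p 7.45e-06), a stage before TEAD4 was called. It had 91.4, 47.7 and 92.1 RPM in blastocysts. YAP1 had 2.23, 3.25 and 2.04 RPM in blastocysts and 10.7, 9.74 and 7.66 RPM at the 8-cell stage. Its fall of −1.57 (limma, adjusted p 0.00258) was lost under median-ratio scaling, quantile normalization and a pseudocount of 5, with adjusted p-values of up to 0.302. The targets CTGF and CYR61 rose at the 16-cell stage against the 8-cell stage by 2.19 and 1.22 (limma, adjusted p 0.000777 and 0.0019); the call of CYR61 was lost on the deposited RPKM, with a pseudocount of 5, without 16-cell C, and without 16-cell C and morula C together, where the change was short of the fold required at adjusted p-values of up to 0.0218. The calls of WWTR1 and CTGF came a stage before that of TEAD4, an order that depends on the fold required. In the same step TEAD4 went from 0 to 26 reads, as given above, without a call. AMOTL2 had 51.7, 44.7 and 52.1 RPM in blastocysts and 19.2, 8.79 and 0 RPM in morulae, and rose by 3.11 (limma, adjusted p 0.000461).

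Over the Hippo genes as a whole, 5 rose and 10 fell in 16-cell against 8-cell embryos, where 15.4% of all genes tested were called upward and 30.7% downward. In morulae against 16-cell embryos 1 rose and 3 fell, with 0 to 2 rises and 2 to 5 falls when libraries were left out in turn. Over all genes tested these shares were 9.44% upward and 7.59% downward, and in blastocysts against morulae 7.74% and 28.1%. In blastocysts against morulae 2 rose and 4 fell, and the balance changed with the scaling: 4 rose and 2 fell under median-ratio scaling, 3 and 2 under quantile normalization, and 3 and 3 when scaled to reads in listed genes. Without morula C 3 rose and 2 fell. In 2-cell embryos against oocytes 4 rose, where 14% of all genes tested were called upward. Each of those 4 calls was lost under median-ratio scaling and quantile normalization. The median of the 18 genes was −1.48 in blastocysts against the 8-cell stage, beside −0.93 over all genes tested.

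Other transcription factors of the trophoblast numbered 29 in the list, of which 24 were found and 15 passed the filter. In blastocysts against the 8-cell stage 5 rose and 2 fell, or 9 and 2 under median-ratio scaling (13 tested) and 11 and 2 under quantile normalization. The shares over all genes tested were 18.0% upward and 47.9% downward. Without blastocyst B 3 rose and 3 fell, and without blastocyst C 3 rose and 2 fell, with 12 and 13 genes passing the filter. KLF5 had 597, 320 and 516 RPM in blastocysts and 5.83, 5.99 and 6.72 RPM at the 8-cell stage, a rise of 6.01. ESRRB rose by 4.70, ETS2, an ETS factor that activates the interferon tau genes of ruminant trophoblast, by 4.17, and ARID3A by 2.67. The falls were TBPL1, a relative of the TATA-binding protein (−7.96), and the nuclear receptor PPARG (−4.12). All 6 had limma adjusted p-values of at most 8.83e-08. ETS2 had 19.1, 22.9 and 17.4 RPM in blastocysts and 0.0178, 0.125 and 0.417 RPM in morulae, so its rise of 4.14 (limma, adjusted p 1.71e-13) fell in the same step as that of GATA3. EOMES, a trophoblast factor of the mouse, had at most 0.404 RPM in blastocysts and was not called against the 8-cell stage.

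Genes of the trophectoderm epithelium, such as keratins, junction proteins and transporters, made a list of 41, of which 33 were found and 25 passed the filter. In blastocysts against morulae 10 rose and none fell, or 16 under median-ratio scaling and quantile normalization. Of all genes tested, 7.74% were called upward and 28.1% downward there. Without blastocyst A 6 rose and none fell, without blastocyst B 7 rose and none fell, and without blastocyst C 7 rose and 2 fell. In blastocysts against the 8-cell stage 17 rose and 4 fell, where 18.0% of all genes tested were called upward and 47.9% downward. The largest rises were in KRT8 (9.62), the annexin partner S100A10 (5.47), the glucose transporter SLC2A3 (4.57) and the tetraspanin TSPAN1 (3.92). The falls were in the tight junction protein OCLN (−3.18), the membrane linker EZR (−2.82), the sodium pump subunit ATP1B1 (−2.10) and the cadherin CDH1 (−1.25). The calls of ATP1B1 and CDH1 were lost under median-ratio scaling and quantile normalization, with adjusted p-values of up to 0.0744 and 0.659. The median over the 25 genes was 1.71, beside −0.93 over all genes tested.

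Blastocyst B stood apart from A and C in several of these genes. It had the most GATA3 (54.8 RPM) and the least TFAP2C (0.684 RPM) of its stage. KRT19 had 70.0 RPM in blastocyst B beside 1.35 and 0.908 RPM in A and C, TSPAN1 had 0.912 RPM beside 25.2 and 74.9 RPM, and the water channel AQP11 had 0.193 RPM beside 9.63 and 31.6 RPM. Without blastocyst B, GATA3 still rose against morulae, by 3.20 (adjusted p 0.00166).

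Factors of the other lineages were read beside these. Of 21 genes of the inner cell mass and of pluripotency, 15 were found and 11 passed the filter. In 16-cell against 8-cell embryos 7 rose and 2 fell, where 15.4% of all genes tested were called upward and 30.7% downward. The 2 falls became 0 under median-ratio scaling and quantile normalization, and were 0 or 1 when 8-cell A, 8-cell B, 16-cell A or 16-cell B was left out. In blastocysts against the 8-cell stage 6 rose and 1 fell, where 18.0% were called upward and 47.9% downward. The medians of the 11 genes were 1.44 and 1.47 in these comparisons, beside −0.52 and −0.93 over all genes tested. The rises with the largest changes there were ESRRB, which the trophoblast list also holds, KLF4 (3.17), PRDM14 (2.96) and TBX3, and the fall was LIN28A (−1.37). PRDM14 had 89.9, 87.7 and 41.2 RPM at the 16-cell stage and 0.482, 1.29 and 3.52 RPM at the 8-cell stage, so it rose in the same step as TFAP2C, by 4.81 (limma, adjusted p 4.48e-09). Of 12 genes of the primitive endoderm, 9 were found and 5 passed the filter. In blastocysts against the 8-cell stage 2 of them rose, 1 fell and 2 were not called. The rises were DAB2 (8.49) and SPARC (3.36).

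**Figure D4:**
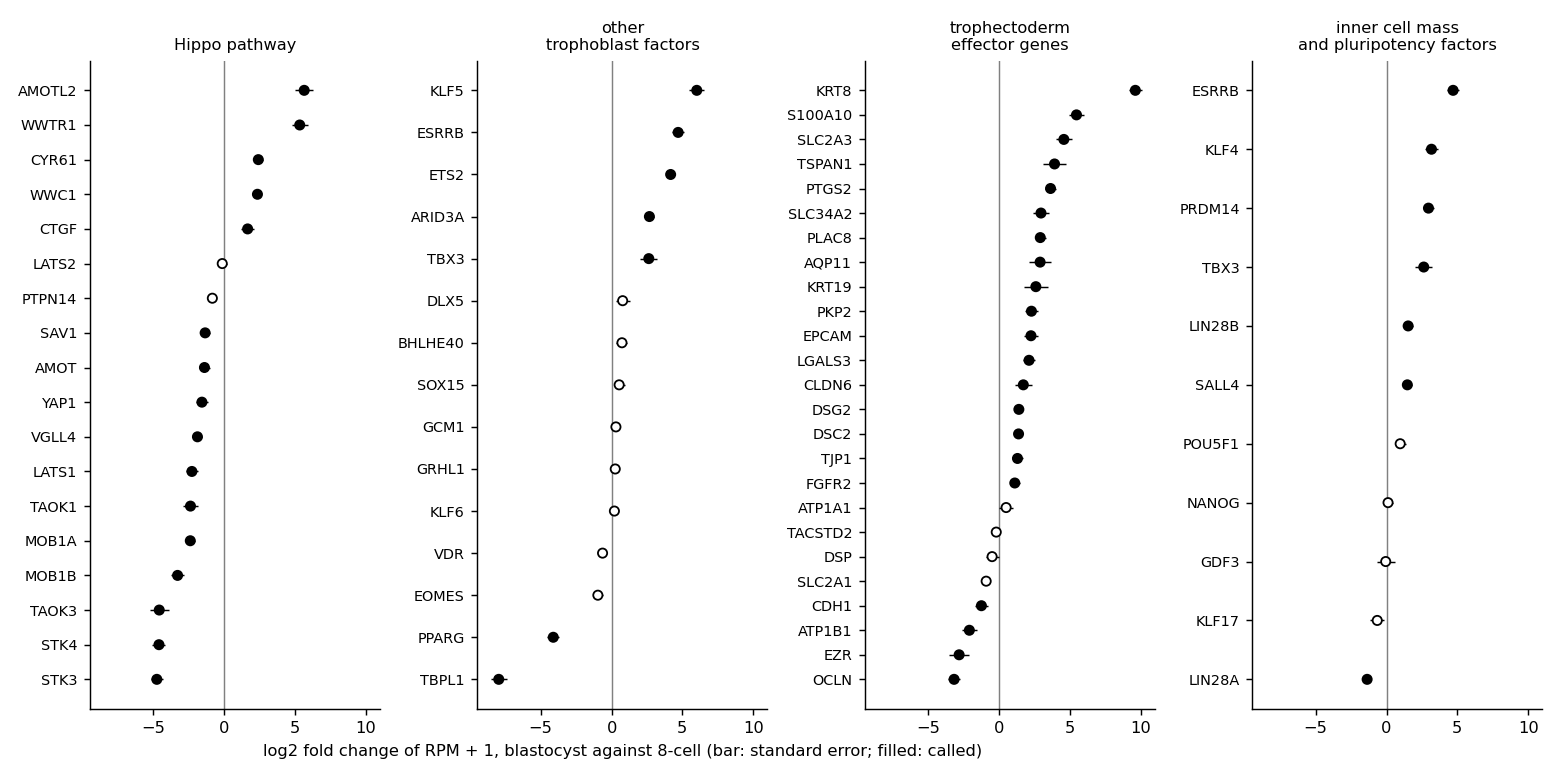
Log2 fold changes of RPM + 1 in blastocysts against 8-cell embryos (horizontal axis) for the genes of 4 lists that passed the filter, ordered within each list, with bars of 1 standard error; filled points are called. Trophectoderm effector genes run from KRT8 at 9.62 to OCLN at −3.18, and Hippo genes from AMOTL2 at 5.65 to STK3 at −4.75.

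Markers of cells that could adhere to oocytes and embryos differed between stages too. Of 12 listed markers of cumulus and granulosa cells 10 were in the table, without FOXL2 and HAS2, which were not analysed here. Their summed level was 15.9 to 25.3 RPM at the 8-cell stage, 20.8 to 47.5 RPM at the 16-cell stage, 0.812, 0.875 and 51.6 RPM in morulae A, B and C and 1.52 to 4.14 RPM in blastocysts. At most 2 of the 10, STAR and TNFAIP6, reached 1 RPM in any of these libraries, and AMH had no read at the 8-cell stage. Of 7 fibroblast markers 6 were found, and their sums were 67.9 to 80.7 RPM at the 8-cell stage, led by DCN, 35.3 to 99.9 RPM at the 16-cell stage, with the highest in 16-cell C, 2.48, 9.66 and 59.0 RPM in morulae and 1.86 to 3.78 RPM in blastocysts, where COL1A2 had no read. Of the 4 fibroblast markers that passed the filter, 1 was called upward in 16-cell against 8-cell embryos and 3 were not called. The marker called was COL1A2, at 2.90 (limma, adjusted p 2.01e-05). Of all genes tested, 15.4% were called upward in that step, in which TFAP2C rose. The part of such cells in that step was not tested. Markers of the oviduct and uterine epithelium, of blood and of sperm summed to at most 5.66, 1.84 and 2.83 RPM in any library. In blastocysts the sums of cumulus and fibroblast markers were lower than at the 8-cell stage, while the cumulus sums were higher than in morulae A and B. The part of such cells in the levels of GATA3, TFAP2A and GATA2 was not tested at any stage.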

How the data were processed

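Per the file headers, the authors deposited 1 table of RPKM values with a column per library, in which every value carries an offset of 0.01 and is divided by the whole gene span, introns included. The submitters' processing notes name the tools Partek, FastQC and STAR 2.5.3a. Neither build nor strandedness nor counting rule is given in the sources used here, and coordinates are the table's own.

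RPM was the deposited RPKM less 0.01, times the span in kb. The step between low values gave the reads: 93.9 to 95.7% of values under 60 reads in a library were whole within 0.05. RPM was preferred to RPKM because a pseudocount of 1 RPKM hides low values of long genes. limma 3.58.1 (trend, robust; R 4.3.3) was fitted to log2(RPM + 1) over all 21 libraries and 7 stages, for genes with at least 1 RPM in at least 3 libraries, with two-sided tests and Benjamini-Hochberg adjustment per comparison. The procedure was tested on simulated data. Python 3.11.15 made the tables and figures.

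Members, gene lists, comparisons and tests were chosen with earlier results of these data known. Named are all members and their relatives, in each other list at most 4 rises and 4 falls, those of greatest size in blastocysts against the 8-cell stage among genes whose libraries do not overlap, and the 5 genes most like each member; other genes and values were chosen after they were seen. Alternatives were other pseudocounts, filters, scalings, a replicate block and leaving out libraries. No sequences are shown, and 1 gene that this rule selects is not reported here.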

Additional observations from a re-analysis of the deposited data

How the results depend on the processing

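No change of a factor that was called turned its direction under any alternative run. In 16-cell against 8-cell embryos 1 factor was called with all libraries and 2 without 16-cell C and morula C together, and leaving out each library in turn gave 1 to 2. In morulae against 16-cell embryos 1 was called, but 0 on the deposited RPKM (1 factor tested), 0 with a pseudocount of 5 and 0 with a filter of 5 RPM (2 tested), and 1 to 2 when libraries were left out in turn, with 2 without morula C. In blastocysts against morulae 2 were called, but 0 on the deposited RPKM, and 1 each with a pseudocount of 5, median-ratio scaling and quantile normalization. In blastocysts against the 8-cell stage 3 were called, but 0 on the deposited RPKM and 1 with a pseudocount of 5. On the deposited RPKM the changes of TFAP2C in the blastocyst comparisons were −0.68 and 0.35, and with a pseudocount of 5 they were −0.90 and 0.52; the larger pseudocount shrinks them by construction.

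Whether letters A to C pair the libraries was not settled. Deviations from the stage means of same-letter libraries correlated at −0.30 to 0.39, and no comparison had all 3 above 0.1. In morulae against 16-cell embryos the values were −0.10, 0.29 and 0.39 for A, B and C. Libraries of different letters were not correlated, so this check cannot decide on a pairing. With the replicate block, 1, 1, 2 and 3 factors were called in these 4 comparisons, as without it.

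Over all genes, the counts called ranged from 203 to 2024 (1501 as reported) in 2-cell against oocyte, 8 to 130 (40) in 8-cell against 4-cell, 1502 to 5634 (4789) in 16-cell against 8-cell, 683 to 3404 (1768) in morula against 16-cell, 1244 to 4568 (3727) in blastocyst against morula and 2422 to 7782 (6848) in blastocyst against 8-cell. The median gene of blastocysts against the 8-cell stage was −0.93, and −0.19 under median-ratio scaling, which moved the share of rises among the calls to 47.4%, against 27.3%. Depth limits CDX2 and ELF5, whose stage order outside the blastocyst rests on at most 75 reads per stage.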
